A study of Homo sapiens with 6 samples.

Results

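The genes described here are the integrin subunits, the laminin chains and 10 secreted matrix glycoproteins, as measured in MDA-MB-231 cells and in Adriamycin-resistant (ADRr) cells derived from them. MDA-MB-231 is a human triple-negative breast cancer line, and Adriamycin (ADR) is the anthracycline doxorubicin. The members were taken by name from the protein-coding rows of the gene table: the ITGA and ITGB genes, the LAMA, LAMB and LAMC genes, and FN1, VTN, TNC, SPP1, SPARC, NID1, NID2, THBS1, THBS2 and THBS3. They come to 48 of the 58735 genes listed, namely 18 integrin α subunits, 8 integrin β subunits, 12 laminin chains and 10 glycoproteins. RNA was sequenced from 3 libraries of parent cells, labelled WT, and 3 libraries of ADRr cells, labelled ADR resistant. According to the methods, the resistant cells were selected under ADR that was raised in steps, and the survivors were grown in medium with a high dose of ADR. Clones were then taken from single cells by limiting dilution, so that what belongs to resistance and what belongs to a clone cannot be told apart. Both groups were grown in DMEM with serum, and whether ADR was present at harvest is not stated in the labels. Nothing in the labels says that the libraries of a group came from separate cultures, so the p-values measure the spread between these libraries, which may be technical. The series record speaks of 3 time points, which no sample label names; had the libraries of a group been taken at different times, their spread, the SE and the p-values would include that difference. Total counts ranged from 15983985 to 18272314 per library.

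Integrins are receptors made of an α and a β subunit that tie the cytoskeleton to the extracellular matrix. The α subunit largely decides the ligand: ITGA1, ITGA2, ITGA10 and ITGA11 belong to collagen receptors, ITGA3, ITGA6 and ITGA7 to laminin receptors, and ITGA5, ITGA8, ITGAV and ITGA2B to receptors that read the Arg-Gly-Asp motif of fibronectin, vitronectin and similar proteins. Laminins are trimers of an α, a β and a γ chain that build basement membranes. Laminin-332, which holds the products of LAMA3 and LAMB3, is the epithelial laminin to which hemidesmosomes anchor through the ITGA6/ITGB4 receptor.

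In ADRr cells the laminin-332 chain LAMB3, the hemidesmosomal integrin ITGB4, the collagen receptor subunits ITGA1 and ITGA2 and the fibronectin receptor subunit ITGA5 rose, by 2.16- to 3.38-fold. ITGAX, a leukocyte integrin subunit, was close to 0 in parent cells and had counts in every ADRr library. The matricellular protein THBS1 fell 3.26-fold, ITGB5 fell 2.19-fold, and ITGAV and ITGB1 fell by a smaller amount. Of the 48 genes, 32 had enough counts for edgeR's quasi-likelihood test, which was run on all 15242 genes with enough counts and adjusted over them by Benjamini-Hochberg. A gene was called when the adjusted p was at most 0.05 and the fold change at least 1.2. By this rule 14 of the 32 tested members were higher in ADRr cells (43.8%), against 29.2% of all tested genes, and 11 were lower (34.4%), against 29.6% of all tested genes. ITGAX reached the filter on low counts only in the ADRr libraries, and ITGB8 and THBS2 reached it in all parent libraries but 1 ADRr library, so these 3 entered the test through the group where they were high. Without them 13 of 29 members were called higher (44.8%) and 9 lower (31.0%). Every ADRr library lay above every parent library for 17 members, an arrangement found in 34.5% of all tested genes, and below every parent library for 9 members, found in 34.7% of all tested genes. The median log2 fold change was 0.22 over the tested members and -0.01 over all tested genes, and the median absolute log2 fold change was 0.69 against 0.46. With a stricter reading of the same methods, in which the log2 fold change itself has to reach 1.2 in size, 5 members were higher and 1 was lower.

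**Figure D1:**
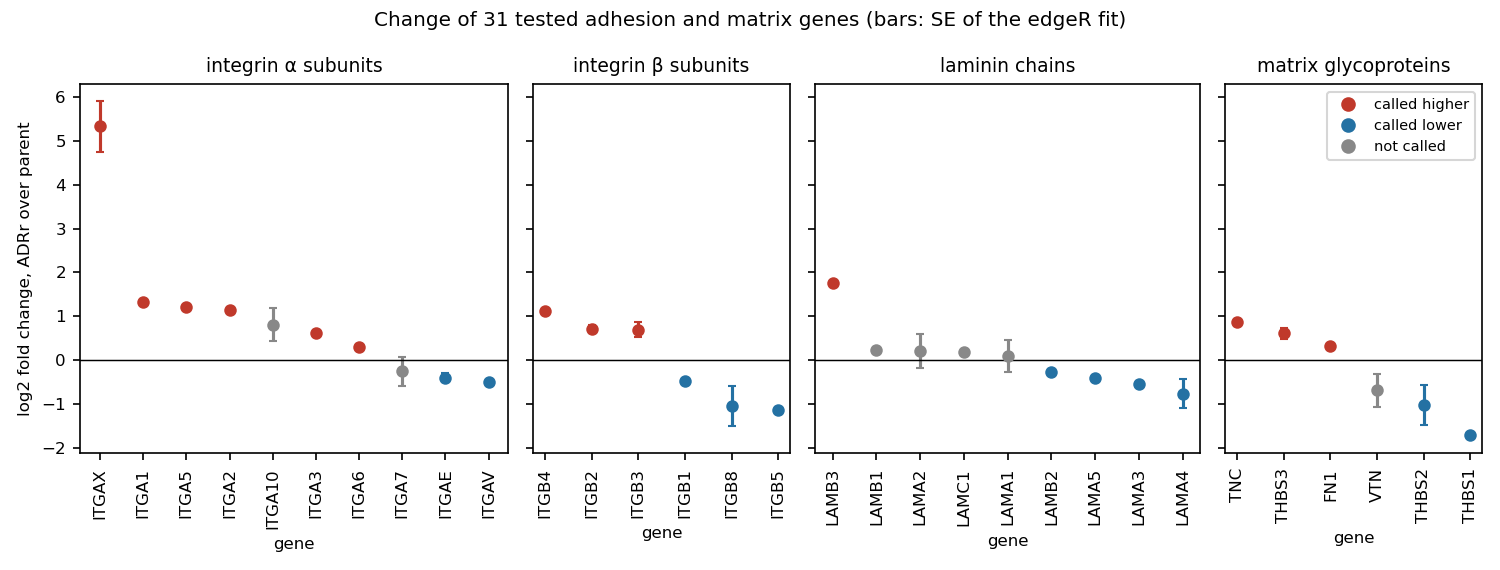
Log2 fold change of ADRr over parent cells for 31 of the 32 tested members, in 4 panels by family and ordered by size within each, with bars for the SE of the fit (hidden by the point where small) and colour for the call. LAMB3 (1.76) stands above the other laminin chains drawn, and THBS1 (-1.70) is the lowest gene drawn.

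LAMB3 and LAMA3, chains of laminin-332, moved apart. LAMB3, the β chain, lies at chr1:209614870-209652466 (GRCh38) and had 7950, 7292 and 8098 normalized counts in parent replicates 1 to 3 and 26107, 26771 and 26003 in ADRr replicates 1 to 3. All ADRr libraries were far above all parent libraries, a 3.38-fold increase (log2 fold change 1.76 ± 0.05 SE, edgeR adjusted p = 1.2e-18). The α chain LAMA3, at chr18:23689443-23956222, went the other way. Its normalized counts were 1424, 1214 and 1337 in parent cells and 880.2, 914.7 and 926.5 in ADRr cells. The ADRr libraries were all below the parent ones, and LAMA3 fell 1.46-fold (log2 fold change -0.55 ± 0.07 SE, adjusted p = 3.0e-07). The 50 tested genes nearest to LAMA3 on chromosome 18 had a median log2 fold change of 0.59, so its fall stood against higher levels of its neighbours.

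On the FPKM scale, which divides counts by gene length and allows levels of different genes to be compared, LAMB3 stood at 94.9 ± 5.24 (SD, n = 3) in parent cells and 322 ± 4.22 in ADRr cells. LAMA3 stood at 5.16 ± 0.422 and 3.54 ± 0.0959, below LAMB3 in every library. The ratio of LAMB3 to LAMA3 FPKM was 18.4 ± 0.82 in parent cells and 90.8 ± 2.6 in ADRr cells. The LAMA3 length used for FPKM spans the exons of its long and short transcripts together, so the level may be understated where the short one is made.

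Promoter sequences were read for the members that the RefSeq table (GRCh38.p14) lists, 36 of the 48 genes. In the 250 bases before the start, the letters of the AP-1 site, TGANTCA, which read the same on both strands, occurred in 2 of these 36 genes (5.6%), LAMA3 and LAMB3, against 8.1% of the 27305 genes in the table. The share among the members was thus not above that of all genes. The matches are shown with 30 bases around each match, 5′ to 3′ on the gene's strand, with the match in capitals. The LAMB3 match begins 67 bases before 1 of the 3 starts listed for the gene, at chr1:209651424-209651453 (minus strand), and the LAMA3 matches begin 125 and 69 bases before a start inside the gene, at chr18:23872883-23872912 and chr18:23872939-23872968 (plus strand).
LAMB3: cgtcagccactcTGACTCAttcactttggg
LAMA3, 125 bases before the start: tctggcacaggcTGACTCAtgtgtgaagtt
LAMA3, 69 bases before the start: gccttcctcaccTGAGTCAggcaggcccgg
A match of letters is a description of the sequence and does not show that a factor binds there.

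Among the other laminin chains, those of the trimers built on LAMA5 changed less. LAMA5, the main laminin α chain of these libraries, had 9219, 7912 and 10111 normalized counts in parent cells and 6832, 6970 and 6669 in ADRr cells. The ADRr libraries were closely spaced and all lower, a 1.33-fold fall (log2 fold change -0.41 ± 0.06 SE, adjusted p = 5.3e-06). LAMB2, a β chain, had 5802, 5510 and 6384 normalized counts against 4782, 5101 and 4854. It was called lower at the limit of the fold threshold (log2 fold change -0.27 ± 0.05 SE, adjusted p = 2.1e-04), beside a median of -0.71 for its 50 nearest tested genes on chromosome 3. Without parent replicate 3 (-0.21), ADRr replicate 1 (-0.24) or ADRr replicate 3 (-0.26), and under most other settings, it was under the fold threshold. LAMB1 and LAMC1, the β and γ chains of the classical laminins, were above every parent library in every ADRr library and passed the adjusted p, but changed by less than 1.2-fold. LAMB1 had a log2 fold change of 0.24 ± 0.05 SE (adjusted p = 1.8e-04), which passed the fold threshold without parent replicate 1 (0.26) or with library size as the only scaling (0.27). LAMC1 had one of 0.19 ± 0.05 SE (adjusted p = 7.6e-04).

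LAMA4, LAMA1 and LAMA2, laminin α chains of vessels, embryonic basement membrane and muscle, were close to the limit of testing. LAMA4 had 31.9, 60.58 and 35.06 normalized counts in parent cells and 25.69, 33.49 and 15.88 in ADRr cells, with the groups overlapping. It was called lower (log2 fold change -0.77 ± 0.33 SE, adjusted p = 0.044), a call lost without parent replicate 2 (-0.44), ADRr replicate 1 (-0.78) or ADRr replicate 3 (-0.52) and in DESeq2 (adjusted p = 0.12). LAMA1 and LAMA2 were not called, with log2 fold changes of 0.09 ± 0.37 SE (adjusted p = 0.83) and 0.21 ± 0.39 SE (adjusted p = 0.66).

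**Figure D2:**
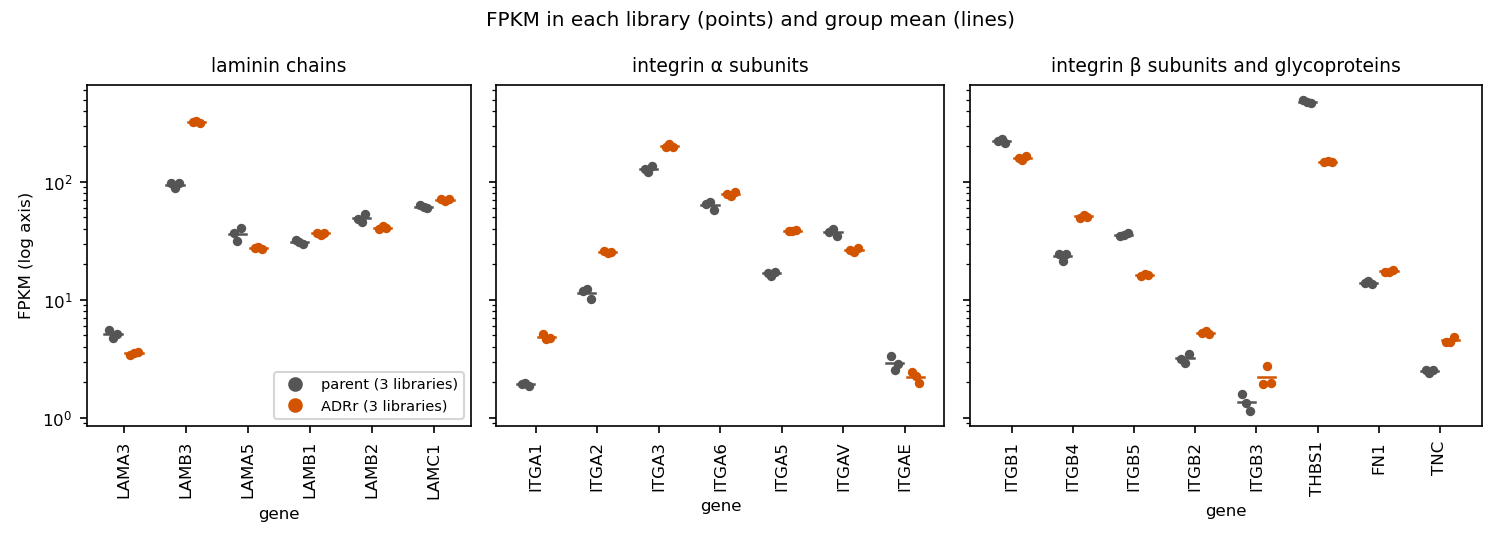
FPKM of 21 members in each library on a log axis, as points for the 3 parent (grey) and 3 ADRr (orange) libraries with a line at the group mean. The 3 libraries of a group lie close together for most genes, and the groups are far apart for LAMB3, ITGA5, ITGB4, ITGB5 and THBS1.

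Hemidesmosome genes were read as a list of 9, which holds LAMA3, LAMB3 and both integrin subunits. ITGB4, the subunit found in hemidesmosomes, had 2889, 2540 and 2936 normalized counts in parent cells and 5878, 6246 and 5990 in ADRr cells. The lowest ADRr library was well above the highest parent library, a 2.16-fold increase (log2 fold change 1.11 ± 0.06 SE, adjusted p = 7.0e-14). Its partner ITGA6 had 7372, 7783 and 6601 normalized counts against 9012, 8625 and 9309, again with no overlap. ITGA6 rose 1.24-fold (log2 fold change 0.31 ± 0.06 SE, adjusted p = 3.9e-05), a call lost without parent replicate 3 (0.24) and when the test was made against a 1.2-fold change (edgeR's glmTreat, adjusted p = 0.14). On the FPKM scale the ratio of ITGA6 to ITGB4 went from 2.71 ± 0.43 to 1.54 ± 0.098, so that the subunits were closer in level in ADRr cells. COL17A1, the transmembrane collagen of hemidesmosomes, rose by 0.28 ± 0.09 SE on the log2 scale (adjusted p = 0.0087). PLEC, which encodes the plakin that links ITGB4 to keratin filaments, fell by 0.85 on the log2 scale (SE 0.06, adjusted p = 9.8e-12). DST (log2 fold change -0.07 ± 0.05 SE, adjusted p = 0.22) and the tetraspanin CD151 (-0.19 ± 0.06 SE, adjusted p = 0.01) were not called. In all, 5 of the 9 genes were called higher (55.6%) and 2 lower (22.2%), against 29.2% and 29.6% of all tested genes, with a median log2 fold change of 0.28 against -0.01 over all tested genes. Among the genes of the list that are not members, COL17A1 was called higher, PLEC lower, and DST and CD151 were not called. The share called higher thus rests mostly on members and is not a separate result.

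The collagen receptor subunits ITGA1 and ITGA2 are neighbours on chromosome 5, 30.1 kb apart, and rose together. ITGA1 had 628.8, 642.6 and 608.7 normalized counts in parent cells and 1653, 1512 and 1524 in ADRr cells. ITGA2 had 1635, 1713 and 1411 against 3561, 3465 and 3516. For both genes the ADRr libraries were all above the parent ones by more than the range of either group. The log2 fold changes were 1.32 ± 0.07 SE for ITGA1 (adjusted p = 6.4e-14) and 1.15 ± 0.06 SE for ITGA2 (adjusted p = 2.7e-13), beside medians of 0.24 and 0.20 for the 50 tested genes nearest to each. PELO, which overlaps ITGA1 on the same strand, had mean counts of 1024.3 in parent and 1356.3 in ADRr cells. PELO was called higher (log2 fold change 0.33), and its part in the ITGA1 values was not tested. ITGA10, another collagen receptor subunit at 10.7 to 26.2 normalized counts, was not called (log2 fold change 0.81 ± 0.38 SE, adjusted p = 0.065). It passed without ADRr replicate 2 (0.99, adjusted p = 0.048) and when genes needed at least 10 counts in every library (adjusted p = 0.034).

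ITGA3, the laminin receptor subunit with the highest FPKM of all α subunits, had 22170, 21015 and 23517 normalized counts in parent cells. In ADRr cells it had 33908, 35621 and 33588. The groups were clearly apart, and ITGA3 rose 1.55-fold (log2 fold change 0.63 ± 0.05 SE, adjusted p = 5.8e-11). ITGA7, a laminin receptor subunit of muscle, was at 19.98 to 37.9 normalized counts and was not called (log2 fold change -0.25 ± 0.33 SE, adjusted p = 0.52).

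Among the subunits that read Arg-Gly-Asp, ITGA5 and ITGAV changed in opposite directions. ITGA5, which pairs with ITGB1 as the classical fibronectin receptor, had 2257, 2133 and 2290 normalized counts in parent cells and 5034, 5124 and 5194 in ADRr cells. All ADRr libraries were far above the parent range, and ITGA5 rose 2.30-fold (log2 fold change 1.2 ± 0.05 SE, adjusted p = 3.4e-15). ITGAV, which pairs with ITGB3, ITGB5, ITGB6 and ITGB8 as well as ITGB1, had 5350, 5704 and 5044 normalized counts against 3816, 3671 and 3900. Here the parent libraries were all higher, and ITGAV fell 1.41-fold (log2 fold change -0.50 ± 0.05 SE, adjusted p = 2.4e-08). The ratio of ITGA5 to ITGAV FPKM was 0.451 ± 0.044 in parent cells and 1.46 ± 0.044 in ADRr cells, so the order of these genes changed: ITGAV was the higher one in all 3 parent libraries and ITGA5 in all 3 ADRr libraries.

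The β subunits that pair with ITGAV did not move together. ITGB5 had 3900, 3971 and 4162 normalized counts in parent cells and 1789, 1873 and 1838 in ADRr cells. The groups were well separated, with a 2.19-fold fall (log2 fold change -1.13 ± 0.05 SE, adjusted p = 1.7e-14). ITGB3, the β subunit of the platelet fibrinogen receptor and of a vitronectin receptor, rose from 105 ± 16.9 (SD, n = 3) to 170.1 ± 36.7 normalized counts (log2 fold change 0.69 ± 0.17 SE, adjusted p = 8.3e-04), with no overlap between the groups. The call was not kept under all other settings, over which the log2 fold change ranged from 0.44 to 0.81. ITGB8, a subunit of an integrin that activates latent TGF-β, had 19.55, 15.14 and 20.45 normalized counts against 3.81, 14.65 and 8.41. The highest ADRr library nearly reached the lowest parent one, and the call lower was at the threshold (log2 fold change -1.05 ± 0.45 SE). Since ITGB8 entered the test through its parent counts, no p is given for it. The call was lost without parent replicate 1 (-1.01), parent replicate 3 (-0.97), ADRr replicate 1 (-0.67) or ADRr replicate 3 (-1.02) and in DESeq2.

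ITGB1, the β subunit shared by most of these receptors, had 23335, 24338 and 22580 normalized counts in parent cells. In ADRr cells it had 16753, 16138 and 17321. Each ADRr library was below each parent library, and ITGB1 fell 1.40-fold (log2 fold change -0.48 ± 0.05 SE, adjusted p = 3.0e-09). The summed FPKM of all α subunits was 264.2 ± 2.17 in parent cells and 378.7 ± 1.84 in ADRr cells, while that of all β subunits was 286.5 ± 5.89 and 234.8 ± 4.8. The β sum was thus the larger in every parent library and the α sum in every ADRr library. The ratio of ITGA3 to ITGB1 FPKM was 0.584 ± 0.055 in parent cells and 1.26 ± 0.084 in ADRr cells.

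Within the α subunits, ITGA3 held 49.1 ± 2.9% of the FPKM in parent cells and 53.1 ± 1.4% in ADRr cells, with overlapping libraries. ITGA5 went from 6.36 ± 0.24% to 10.2 ± 0.15%, and ITGA2 from 4.34 ± 0.42% to 6.73 ± 0.14%. ITGAV went from 14.1 ± 0.84% to 7.0 ± 0.25%. The α subunits of ADRr cells thus held more of the fibronectin and collagen receptor subunits and less ITGAV. ITGA6 held a smaller share in ADRr cells, 20.8 ± 0.89% against 24 ± 1.9%, although its own level was higher. Within the β subunits, ITGB1 went from 77.7 ± 1.4% to 68.0 ± 1.4%, ITGB5 from 12.4 ± 0.61% to 6.95 ± 0.2% and ITGB4 from 8.24 ± 0.79% to 21.8 ± 0.89%. ITGB4 thus took the place of ITGB5 as the β subunit with the second highest FPKM. In the laminin β chains LAMB3 went from 54.2 ± 0.48% to 80.5 ± 0.12%. LAMA5 held 86.6 ± 1.2% of the laminin α chains in parent cells and 87.5 ± 0.56% in ADRr cells, with overlapping libraries. These shares are descriptions and were not tested.

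**Figure D3:**
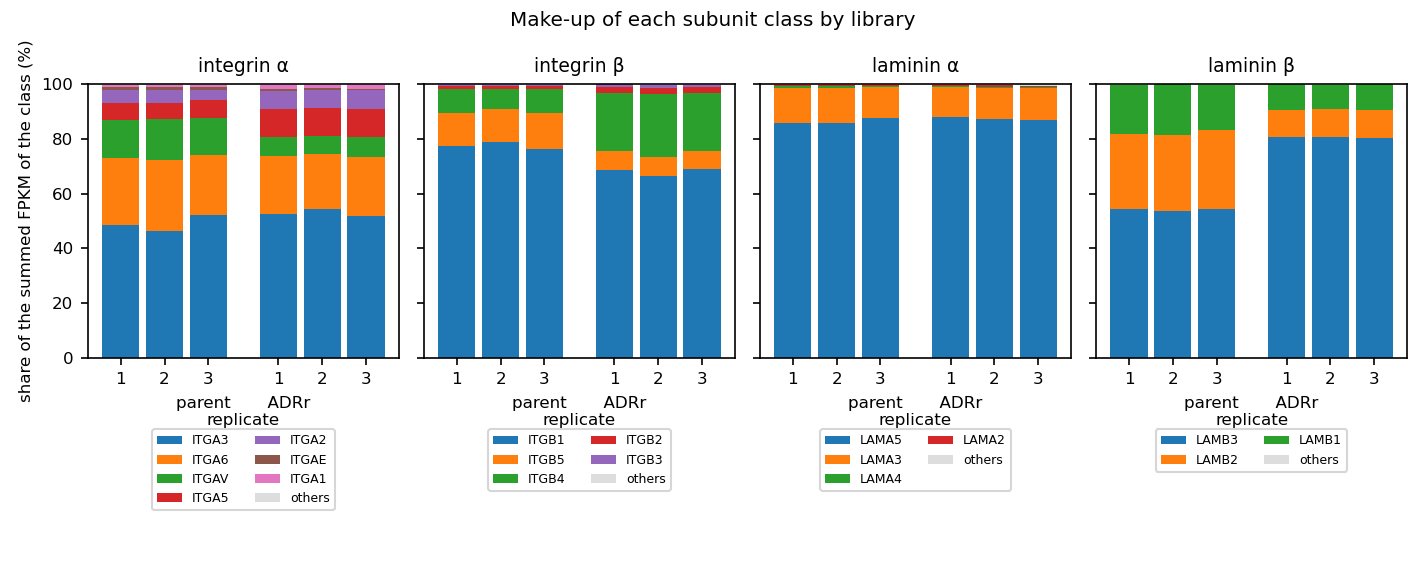
Share of the summed FPKM of each subunit class (in %) held by each gene, as a stacked bar per library, for integrin α, integrin β, laminin α and laminin β; grey stands for the remaining genes of the class. ITGB4 and ITGA5 hold larger and ITGAV and ITGB5 smaller shares in all 3 ADRr libraries, LAMB3 takes a larger share, and the laminin α bars are alike in both groups.

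Subunits at an FPKM of at least 1 in every library of a group would allow 9 of 24 known integrin pairs, and these were the same 9 in parent and ADRr cells: ITGB1 with ITGA1, ITGA2, ITGA3, ITGA5, ITGA6 or ITGAV, ITGB4 with ITGA6, and ITGB3 or ITGB5 with ITGAV. By the same measure laminin-311, laminin-321, laminin-511 and laminin-521 had all their chains in both groups. RNA levels do not show which pairs or trimers were assembled.

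Leukocyte integrins differed at low levels. ITGAX, which encodes CD11c, had 0, 1 and 2 counts in the parent libraries and 56, 28 and 59 in the ADRr libraries. No parent library came near any ADRr library, and the summed counts, scaled by library size, differed 46.1-fold with a 95% exact interval of 15.5 to 226 for counting error only. Since it was tested only through its ADRr counts, no p is given for it. Its level in ADRr cells was still low, 0.372 ± 0.118 FPKM. ITGAM, the CD11b gene 22.2 kb from ITGAX on chromosome 16, had no count in any parent library and 6, 6 and 7 counts in the ADRr libraries, at least 6.13-fold higher when 3 counts are allowed over the parent group; it was not tested. ITGAD, 10.3 kb from ITGAX on its other side, had 1, 0 and 0 counts in the parent libraries and 1, 3 and 8 in the ADRr libraries. The groups overlapped, and the summed counts had a ratio of 11.6 (interval 1.72 to 496, for counting error only). ITGAL, the LFA-1 α subunit on the same chromosome, had no count in any library.

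Their common partner ITGB2, or CD18, was at a higher level. It had 374.6, 346.2 and 418.8 normalized counts in parent cells and 619.5, 642.6 and 604.3 in ADRr cells. The groups did not overlap, and ITGB2 rose 1.63-fold (log2 fold change 0.71 ± 0.09 SE, adjusted p = 2.3e-07), beside a median of 0.50 for its 50 nearest tested genes on chromosome 21. ITGAE, the CD103 gene, fell from 339 ± 44.0 to 258 ± 28.3 normalized counts (log2 fold change -0.40 ± 0.11 SE, adjusted p = 0.0037). This call was not kept under all other settings, over which the log2 fold change ranged from -0.49 to -0.28. HASPIN, which lies inside ITGAE on the opposite strand, fell by 1.17 on the log2 scale. Whether the counting used strand is not stated, so reads of these overlapping genes may be mixed. Of 20 leukocyte marker genes, 5 had at least 1 CPM (counts scaled to a library of fixed size) in both groups (CD14, CSF1R, LCP1, LAPTM5 and CORO1A). Of these, LAPTM5 and CORO1A were called higher and LCP1 and CSF1R lower. The summed level of the list was 69.6 to 75.7 CPM in parent libraries and 99.1 to 106 in ADRr libraries. The other markers of the list were at or near 0. TYROBP and SPI1 had no count in any library. PTPRC, the CD45 gene, had a mean of 0.65 normalized counts in parent cells and 0.31 in ADRr cells. CD53 had no count in any parent library and 4, 1 and 3 counts in the ADRr libraries. For CD68 the counts were 0, 1 and 1 in parent against 3, 0 and 4 in ADRr libraries. CD79A differed the other way, with 4, 1 and 1 counts against 0, 0 and 3. In bulk RNA, fewer cells of a type and less RNA per cell cannot be told apart.

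THBS1, or thrombospondin-1, a matricellular glycoprotein that binds CD47, CD36 and integrins and activates latent TGF-β, took more counts than any other member in parent cells. It lies at chr15:39581079-39599466 and had 79008, 76713 and 74421 normalized counts in the parent libraries and 23408, 24001 and 23295 in the ADRr libraries. The groups were far apart, a 3.26-fold fall (log2 fold change -1.70 ± 0.04 SE, adjusted p = 2.1e-19). In parent cells 0.428 to 0.458% of all counts came from this gene and in ADRr cells 0.137 to 0.141%, while all 48 members together took 1.09 to 1.13% and 1.04 to 1.05%. AC037198.1, a transcript annotated within a THBS1 intron on the same strand, fell as well (log2 fold change -1.09). The 250 bases before the THBS1 start (chr15:39580829-39581078, plus strand, RefSeq, GRCh38.p14) hold 4 matches to the GC box, GGGCGG on either strand, between 223 and 72 bases before the start; they are in capitals. Of the 36 members listed, 20 (55.6%) held these letters in such a window, against 46.2% of all genes in the table, and 3 (8.3%) held TATAAA, against 13.0%.
THBS1: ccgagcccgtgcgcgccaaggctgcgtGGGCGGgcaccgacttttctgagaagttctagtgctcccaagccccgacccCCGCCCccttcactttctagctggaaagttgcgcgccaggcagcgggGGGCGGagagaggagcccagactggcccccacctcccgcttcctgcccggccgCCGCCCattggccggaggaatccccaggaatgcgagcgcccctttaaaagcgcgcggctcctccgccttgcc

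The other thrombospondins were at low levels and differed in direction. THBS3, which encodes a pentameric thrombospondin, rose from 116 ± 5.15 to 176 ± 10.9 normalized counts (log2 fold change 0.61 ± 0.13 SE, adjusted p = 3.6e-04). MTX1, which overlaps it on the opposite strand, fell by 0.41 on the log2 scale. THBS2 had 20.58, 10.82 and 18.51 normalized counts in parent cells and 7.613, 11.51 and 5.604 in ADRr cells, with overlapping groups. It was called lower at the threshold (log2 fold change -1.02 ± 0.45 SE). Since THBS2 entered the test through its parent counts, no p is given for it. The call was lost without parent replicate 1 (-0.85), parent replicate 3 (-0.94), ADRr replicate 1 (-0.96) or ADRr replicate 3 (-0.81) and in DESeq2.

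Among the glycoproteins that integrins read as ligands, FN1 and TNC were higher. FN1, fibronectin, had 4185, 4358 and 4123 normalized counts in parent cells and 5238, 5232 and 5384 in ADRr cells. The groups did not overlap, a 1.25-fold increase (log2 fold change 0.32 ± 0.05 SE, adjusted p = 3.6e-06) that did not pass a test against a 1.2-fold change (glmTreat, adjusted p = 0.071). TNC, tenascin-C, rose from 422 ± 12.4 to 769.5 ± 44.7 normalized counts (log2 fold change 0.87 ± 0.08 SE, adjusted p = 2.1e-09). VTN, vitronectin, was at 10.5 to 32.9 normalized counts with overlapping groups and was not called (log2 fold change -0.69 ± 0.38 SE, adjusted p = 0.11).

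The other 16 members had too few counts to be tested, at most 20 in any library. Beside ITGAM, ITGAD and ITGAL they were ITGA2B, ITGA4, ITGA8, ITGA9, ITGA11, ITGB6, ITGB7, LAMB4, LAMC3, NID1, NID2, SPP1 and SPARC. Thus SPP1 (osteopontin), SPARC and both nidogens, which link laminin to collagen IV, were barely detectable at this depth. ITGB6, the epithelial partner of ITGAV, had 3, 0 and 0 counts in the parent libraries and 1, 3 and 6 in the ADRr libraries (ratio of the sums 3.22, interval 0.83 to 18.2). ITGA9 had 3, 0 and 2 counts in parent against 2, 2 and 8 in ADRr libraries. For ITGA11 these were 4, 0 and 5 against 1, 1 and 0, and for LAMB4 1, 0 and 4 against 1, 1 and 0. The groups overlapped for each of these genes. ITGA2B, the platelet subunit, was the untested member that was lower in every ADRr library, with a mean of 14.4 ± 5.11 normalized counts in parent cells and 3.34 ± 3.16 in ADRr cells.

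Genes that act with these members were read as 3 further lists. The integrin adhesion plaque, the proteins that join integrins to actin, had 37 genes, of which 36 were tested, 10 were called higher (27.8%, against 29.2% of all tested genes) and 14 lower (38.9%, against 29.6%), with a median log2 fold change of -0.12. Without TNS4, which entered the test through its parent counts, 10 of 35 were called higher (28.6%) and 13 lower (37.1%). TNS1 (1.64 ± 0.16 SE, adjusted p = 4.2e-09), FERMT3 (1.41 ± 0.17 SE, adjusted p = 2.0e-07) and VASP (0.74 ± 0.06 SE, adjusted p = 1.7e-10) had the largest increases. FERMT3 is the kindlin of blood cells and TNS1 a tensin, and both were under 200 normalized counts. The largest falls were in TNS4 (-2.19 ± 0.31 SE, no p given for it), TNS3 (-1.31 ± 0.05 SE, adjusted p = 6.6e-16) and ACTN4 (-1.22 ± 0.06 SE, adjusted p = 1.6e-14), which encode tensins and an actin crosslinker.

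Of 29 other matrix receptors and counter-receptors, 24 were tested, 8 were called higher and 8 lower (33.3% each, near the 29.2% and 29.6% of all tested genes), with a median log2 fold change of 0.04. The largest increases were in PLAUR, the urokinase receptor (0.97 ± 0.07 SE, adjusted p = 2.1e-11), CD44, the hyaluronan receptor (0.80 ± 0.04 SE, adjusted p = 2.2e-13), and the tetraspanin CD9 (0.68 ± 0.06 SE, adjusted p = 3.0e-10). The largest falls were in the syndecan SDC2 (-1.96 ± 0.08 SE, adjusted p = 6.1e-16), in DAG1, the dystroglycan that binds laminin outside the integrins (-1.92 ± 0.05 SE, adjusted p = 5.0e-19), and in RPSA (-0.78 ± 0.04 SE, adjusted p = 6.9e-13). DAG1 (from chr3:49468703) lies near LAMB2 (from chr3:49121114), whose 50 nearest tested genes had a median log2 fold change of -0.71. RPSA is also on chromosome 3, and the part of position in these falls was not tested.

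Of 38 other matrix proteins, 25 were tested, 15 were called lower (60.0%, against 29.6% of all tested genes) and 1 higher (4.0%, against 29.2%), with a median log2 fold change of -0.50. Without FBLN5, which entered the test through its parent counts, 14 of 24 were called lower (58.3%) and 1 higher (4.2%). The largest falls were in SPON2 (-2.18 ± 0.25 SE, adjusted p = 5.6e-08), CTGF (-1.77 ± 0.05 SE, adjusted p = 7.0e-18) and EDIL3 (-1.71 ± 0.06 SE, adjusted p = 8.1e-17). SPON2 and EDIL3 encode secreted integrin ligands, and CTGF is a matricellular protein of the CCN family. HSPG2, the basement membrane proteoglycan perlecan, fell from 6189 ± 557 to 2294 ± 43.5 normalized counts (log2 fold change -1.43 ± 0.06 SE, adjusted p = 2.1e-15). The gene called higher was TNXB (0.54 ± 0.13 SE, adjusted p = 0.0011). Most of the fibroblast marker genes that could be tested moved with this list. Of 10 such genes, which include LUM and DCN from the list itself, 5 were tested. Of these 5, 4 were called lower (80%, against 29.6% of all tested genes) and none higher (against 29.2%). COL1A2 entered the test through its parent counts, and without it 3 of 4 tested markers were called lower (75.0%). In each group 4 markers had at least 1 CPM, COL1A2 only in parent cells and ACTA2 only in ADRr cells. ACTA2 was above every parent library in every ADRr library but was not called (log2 fold change 0.65 ± 0.37 SE, edgeR adjusted p = 0.13). The summed level of the markers was 162 to 165 CPM in parent libraries and 30.5 to 33.4 in ADRr libraries. COL1A2 and PDGFRB fell by 7.47 and 2.90 on the log2 scale. The markers DCN, PDGFRA and FAP were at or under a mean of 1.57 normalized counts in both groups, and the part of the other fibroblast markers in these falls was not tested.

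**Figure D4:**
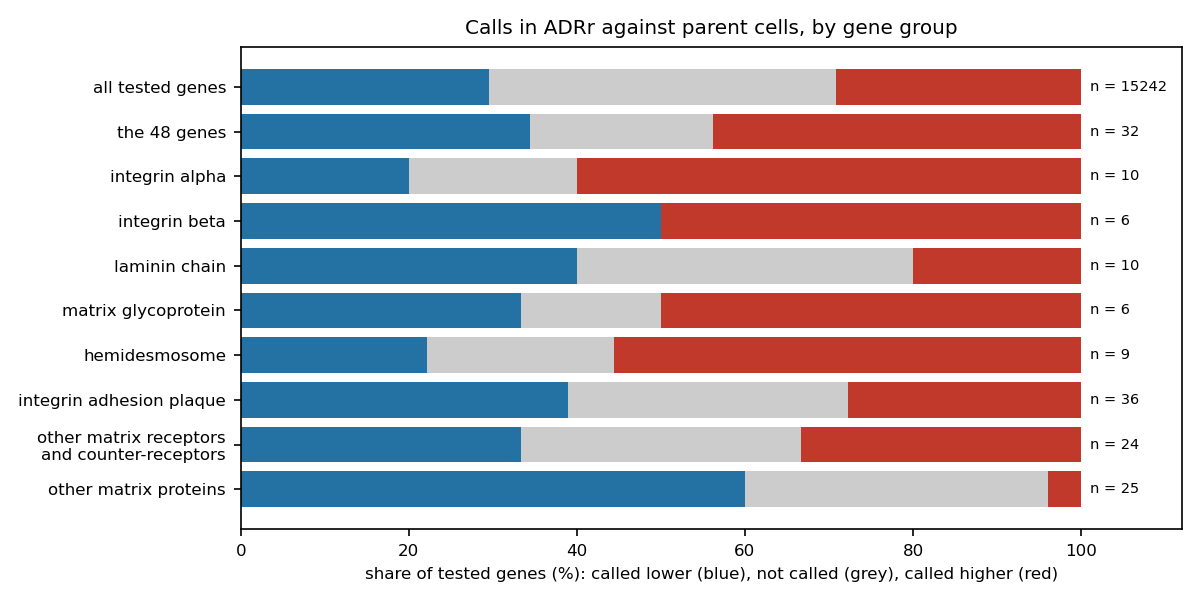
Share of tested genes (in %) called lower (blue), not called (grey) and called higher (red) in ADRr against parent cells, for all tested genes, the 48 genes and their families, and 4 lists of related genes, with the number tested at the right. The red part is 6 of 10 genes for the integrin α subunits (5 of 9 without ITGAX) and 5 of 9 for the hemidesmosome list, and the blue part is 15 of 25 genes for the other matrix proteins (14 of 24 without FBLN5).

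The tested genes nearest to each tested member, up to 50 per member, mostly had a median log2 fold change between -0.30 and 0.26, the exceptions being those around LAMA3, LAMB2 and ITGB2 given with these genes. Several members share their place with a gene on the opposite strand that changed the other way. GALK1, which overlaps ITGB4, fell by 1.22 on the log2 scale, and ADRM1, which overlaps LAMA5, had a log2 fold change of 0.64. Since the strand of counting is not stated, reads of such pairs may be mixed, and their part in the values of ITGB4 and LAMA5 was not tested.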

How the data were processed

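RNA of MDA-MB-231 parent and ADRr cells was sequenced in 3 libraries each. According to the methods, polyadenylated RNA was selected and paired-end reads came from an Illumina NovaSeq; the sample records describe another library kit. The submitters' processing notes name fastp, HISAT2 2.0.5, featureCounts 1.5.0-p3 and DESeq2 1.20.0 with GRCh38. The authors deposited whole-number counts per gene, not normalized, and FPKM values, which are these counts divided by gene length and by a library total. The strand of counting is not given in the sources used here. Counting settings decide which reads a gene receives where genes overlap.

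In R 4.3.3, genes kept by edgeR 4.0.16's filterByExpr (15242; the other 43493 were not tested) were scaled by TMM and compared by the quasi-likelihood test, with p adjusted over all of them (Benjamini-Hochberg). A call needed both an adjusted p no higher than 0.05 and a change of 1.2-fold or more. Normalized counts are counts divided by the effective library size and multiplied by its mean. SE is the log2 fold change divided by the square root of the F statistic. FPKM served to compare levels between genes and, in limma 3.58.1, as an alternative scale; DESeq2 1.42.0 was another. The median SE of the log2 fold change was 0.0964. Intervals cover counting error only. The fits were tested on simulated data.

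One of the members is counted but its own values are not reported here. The members, lists and tests were chosen with earlier results of these data known. Each called member that changed by 1 or more on the log2 scale or had at least 1000 normalized counts, and each at no more than 3 counts per library in 1 group, was to be given by library, and in each of 3 lists the 3 largest increases and 3 largest decreases; other genes named and the promoter motifs were chosen after their values were seen. Leukocyte, fibroblast and cell line markers were read as lists of 20, 10 and 8 genes. Of the last, VIM had a mean of 8812 normalized counts in parent and 5981 in ADRr cells, and CD44 had 14644 and 25428. EPCAM had 215 and 461, CDH1 252 and 121, ERBB2 2059 and 870, and KRT18 4413 and 2803. ESR1 and PGR, the hormone receptors that these cells lack, were at or near 0. Of the 6 tested, 2 were called higher (CD44 and EPCAM, 33.3%, against 29.2% of all tested genes). The other 4 were called lower (VIM, CDH1, ERBB2 and KRT18, 66.7%, against 29.6%).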

Additional observations from a re-analysis of the deposited data

Results flagged for a closer look

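Antisense and divergent RNAs at the members' loci lie outside the 48 protein-coding genes, and 2 of them had higher counts in ADRr cells. ITGB2-AS1, at chr21:44921051-44929678 on the strand opposite ITGB2, had counts of 85, 54 and 77 in the parent libraries and of 153, 143 and 129 in the ADRr libraries, with no overlap between the groups (log2 fold change 0.91 ± 0.17 SE, edgeR adjusted p = 8.7e-05). ITGB2 itself had a log2 fold change of 0.71. ITGB1-DT, which starts within the ITGB1 locus on the opposite strand at chr10:32958845-33082102, had 42, 31 and 29 counts in parent cells and 104, 113 and 109 in ADRr cells (log2 fold change 1.60 ± 0.21 SE, adjusted p = 6.0e-07), while ITGB1 fell by 0.48 on the log2 scale. Whether the counting used strand is not stated, so reads of each RNA and its protein-coding partner may be mixed, which was not tested.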

How the results depend on the processing

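The counts of members called higher (14) and lower (11) ranged from 13 to 15 and from 8 to 12 when each library was left out. When the log2 fold change itself had to reach 1.2 in size, they were 5 and 1. Members called lower were 7 with limma on log2(FPKM + 1) or log2(FPKM + 0.1) at a mean FPKM of at least 0.5, 6 without that filter and 6 with glmTreat. At 1.2 on the log2 scale, the plaque list had 2 higher and 3 lower, the other matrix receptors 0 and 2, the hemidesmosome list 2 and 0, the other matrix proteins 0 and 8, and all tested genes 1114 and 972. The hemidesmosome list had 3 higher with glmTreat. The other matrix proteins called higher (1, TNXB) were 2 in DESeq2, 2 without a filter on low counts, 3 by adjusted p alone and 0 in the 3 limma fits.

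Over 523 values of the 32 tested members under the alternatives, 471 kept direction and call, 45 (8 genes) lost the call, 4 (ITGA10 and LAMB1) gained it, and 3 reversed, none of them called: LAMA1 to -0.18 without parent replicate 2 and -0.31 without ADRr replicate 3 (range over the libraries left out -0.31 to 0.32), and LAMA2 to -0.15 without parent replicate 3 (range -0.15 to 0.51). No alternative moved the median of all tested genes by more than 0.1. With the replicate number as a block, 14 members were higher and 8 lower; ITGB8, THBS2 and LAMB2 lost the call (log2 fold changes -1.09, -1.02 and -0.26). The labels share only a number between groups: same-numbered libraries' deviations correlated at 0.007, -0.021 and -0.046.

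LAMA4, ITGB8 and THBS2 rest on few counts at this depth, and each lost its call under several alternatives. No alternative separates a clone from resistance, and no protein was measured.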
